A study of Mus musculus with 9 samples.

Results

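Transcript levels of *Ctcf* and of 8 cohesin genes were examined in late fetal mouse hearts that carried 0, 1 or 2 copies of a mutant *Ctcf* allele. The 9 genes were taken by name, with earlier results of these data known, and all 9 are reported whatever their values. The list holds *Ctcf*, the core cohesin genes *Smc1a*, *Smc3*, *Rad21*, *Stag1* and *Stag2*, the loader gene *Nipbl*, and the regulators *Pds5a* and *Pds5b*. These genes are 9 of 24571 gene symbols in the table. The 13682 symbols that averaged 1 TPM or more entered the tests, all 9 included. TPM is a measure of transcript abundance per unit of transcript length with a fixed sum in each library, so that levels of different genes can be set side by side.

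The hearts came from C57BL/6N embryos at E18.5, shortly before birth. The mutant allele, CTCF-R567W, was made by CRISPR/Cas9 editing and replaces arginine 567 of the CTCF protein by tryptophan. The 3 groups were wild type (*Ctcf* +/+), heterozygous (*Ctcf* +/R567W) and homozygous (*Ctcf* R567W/R567W), with 3 libraries each and no treatment in any group. Each heart was collected in a tube of its own, but nothing ties a library to a heart or a litter, and no second mutant line is described. The allele was present in every cell of the embryo from fertilisation on, so a change in the heart cannot be told apart from the effect of changes elsewhere in the embryo. Because whole hearts were sequenced, fewer cells of a type and less RNA per cell cannot be told apart either.

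CTCF is a zinc-finger protein that binds a long DNA motif at insulators and at the edges of chromatin domains. Cohesin is a ring built from the SMC1A and SMC3 proteins, closed by the kleisin RAD21 and bound by STAG1 or STAG2. NIPBL loads the ring and drives loop extrusion, PDS5 proteins sit on the ring and help to hold or release it, and CTCF stops the moving ring. Cohesin also holds sister chromatids together until division. In the developing heart the group is known from Cornelia de Lange syndrome, in which mutations of *NIPBL*, *SMC1A*, *SMC3* or *RAD21* can come with congenital heart defects.

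The position of the substitution is shown first, because it defines the groups. *Ctcf* lies on the plus strand at chr8:105636568-105682922 (mm10), and codon 567 is CGG, an arginine codon, at chr8:105676176-105676178 in coding exon sequence of exon 9 of 12. A search of the 736 coding codons for the C2H2 or C2HC zinc-finger pattern found 11 fingers between codons 268 and 577. Codon 567 falls in finger 11, which spans codons 557 to 577 and ends in a cysteine codon, the C2HC form. The reference coding sequence with 15 codons on either side, spliced across an exon junction, has the codon in capitals.

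*Ctcf* codon 567 and its surroundings: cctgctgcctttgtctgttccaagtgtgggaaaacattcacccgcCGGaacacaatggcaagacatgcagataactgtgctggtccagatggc

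This is the wild-type sequence. The table gives 1 level per gene, so transcripts of the wild-type and the mutant allele were not separated.

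Several properties of the libraries touch every result that follows. Cardiomyocyte markers summed to between 28632 and 40605 TPM over 10 genes, so heart-muscle transcripts were abundant in every library. Genes of other organs were present in some libraries. Homozygous replicate 3 held 582 TPM of 12 thymocyte genes, against at most 2.78 TPM elsewhere, and heterozygous replicate 1 held 2570 TPM of 8 liver genes, against at most 48.1 TPM. Transcripts of 8 airway and lung genes added up to 2612 TPM for wild-type replicate 1, to 1105 TPM for heterozygous replicate 1 and to at most 50.6 TPM elsewhere. *Xist* was present in 5 libraries, which were wild-type replicate 1, the 3 heterozygous libraries and homozygous replicate 1, so the heterozygous group held no library without it. The typical gene also differed between genotypes on this scale: the median log2 change over the 13682 genes was 0.23 for homozygous against wild type, 0.15 for heterozygous against wild type and 0.08 for homozygous against heterozygous.

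The 9 genes spanned levels from below 10 to above 100 TPM. *Rad21* was the most abundant, at 82.85 to 111.11 TPM, followed by the 9-library means of *Stag2* at 44.2, *Pds5a* at 37.8, *Ctcf* at 36.3, *Smc1a* at 34.9, *Smc3* at 25.6, *Pds5b* at 15.6, *Stag1* at 14.6 and *Nipbl* at 14.2 TPM. *Rad21* exceeded *Stag2* in 9 of 9 libraries and *Smc1a* exceeded *Smc3* in 9 of 9, while *Smc3* exceeded *Pds5b* in 8 of 9. Other neighbours in this order could not be separated in every library: *Stag2* was above *Pds5a* in 7 of 9, *Pds5a* above *Ctcf* in 5 of 9, *Ctcf* above *Smc1a* in 5 of 9, *Pds5b* above *Stag1* in 4 of 9, and *Stag1* above *Nipbl* in 5 of 9. Transcripts of the kleisin *Rad21* were thus well above those of its ring partners, with a *Rad21*/*Smc3* ratio of 3.51 to 4.50 over the 9 libraries.

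**Figure D1:**
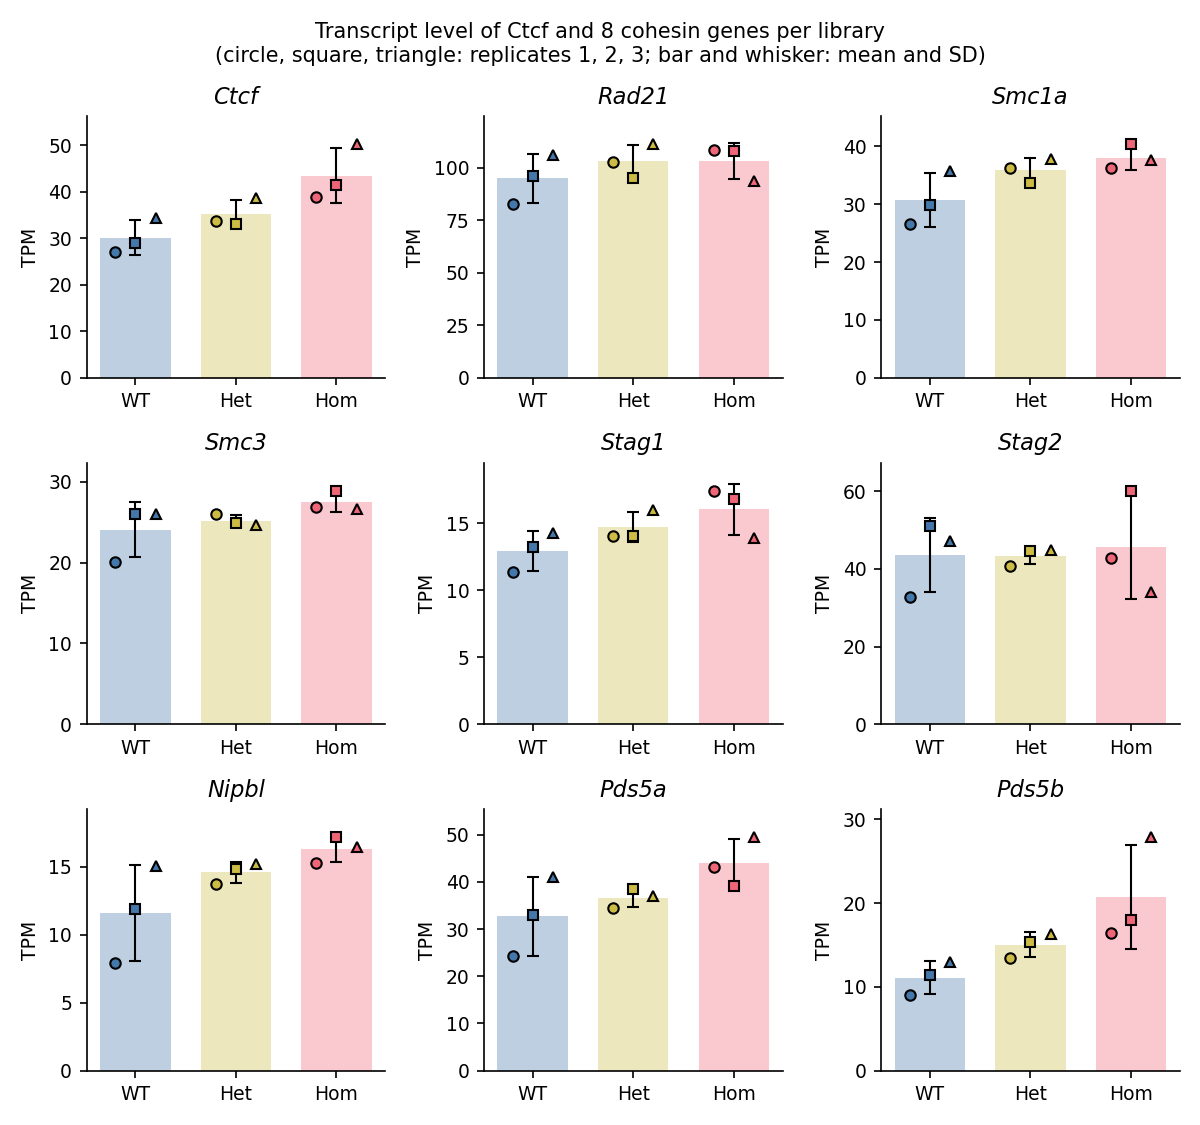
Transcript level in TPM (vertical axis, from 0) of each of the 9 genes in wild-type (WT), heterozygous (Het) and homozygous (Hom) hearts, with 1 marker per library and bars and whiskers for the mean and SD of 3 libraries. Homozygous libraries of *Ctcf*, *Smc3*, *Nipbl* and *Pds5b* lay above all others, by narrow margins such as 38.89 against 38.65 TPM for *Ctcf*. Of all tested genes, 22.3% lay above wild type and 12.0% above heterozygous libraries without overlap. Wild-type replicate 1 (first circle of each panel) was the lowest of the 9 libraries for all 9 genes.

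No member passed the test in any comparison. Homozygous hearts were set against wild type first, which asks how the mutation in both copies relates to the levels of these genes. Limma with Benjamini-Hochberg adjustment over all tested genes called 0 of the 9 genes at an adjusted p under 0.05, against 0.336% of all tested genes. At an unadjusted p under 0.05, 5 of the 9 were higher (*Ctcf*, *Smc1a*, *Nipbl*, *Pds5a* and *Pds5b*), against 22.9% of all tested genes that were higher at that threshold. The log2 changes of all 9 were above 0, against 81.7% of all genes, but those of *Rad21*, *Smc3* and *Stag2* turned below 0 when libraries were scaled by median ratios, and that of *Stag1* as well when GC content and length were corrected for. The median of the 9 was 0.31 against 0.23 over all tested genes. With libraries weighted by their quality (limma's array weights), 7 of the 9 were called, but so were 64.0% of all genes.

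The mean of *Ctcf* itself was higher, not lower, in mutant hearts, by a difference that did not pass the test. The 3 wild-type libraries read 27.01, 28.95 and 34.29 TPM, the heterozygous ones 33.76, 33.15 and 38.65 TPM, and the homozygous ones 38.89, 41.38 and 50.22 TPM. Homozygous libraries were all above both other groups, and wild-type and heterozygous libraries overlapped. The mean was 30.1 ± 3.77 TPM (SD, n = 3) in wild-type, 35.2 ± 3.01 TPM (SD, n = 3) in heterozygous and 43.5 ± 5.95 TPM (SD, n = 3) in homozygous hearts. Homozygous hearts differed from wild type by a log2 change of 0.52 ± 0.14 (SE) on the log2(TPM + 1) scale, a 1.43-fold difference with a 95% interval of 0.21 to 0.82 in log2 and an adjusted p of 0.107 (limma). This change was 0.29 above the median of all genes, at percentile 86.1 of their changes. Against heterozygous hearts the homozygous log2 change was 0.29 (adjusted p = 0.715, limma), and heterozygous hearts differed from wild type by 0.22 (adjusted p = 0.672, limma).

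The size of the *Ctcf* differences depended on scaling and on single libraries. Between homozygous and wild-type hearts it was 0.28 after median-ratio scaling and 0.27 after correction for GC content and length, with adjusted p-values of 0.287 and 0.313 (limma). It was 0.41 without homozygous replicate 3, the library with thymocyte transcripts and the highest *Ctcf* value, and 0.34 without that library, wild-type replicate 1 and heterozygous replicate 1. The difference from heterozygous hearts was 0.19 without homozygous replicate 3, 0.16 without those 3 libraries and 0.15 with sex as a further term. The heterozygous difference from wild type was 0.06 after median-ratio scaling, 0.07 after the GC and length correction and 0.37 with sex as a further term. Without wild-type replicate 3 the homozygous difference from wild type was 0.61 with an adjusted p of 0.0287 (limma), and that omission also called *Smc1a*, *Nipbl*, *Pds5a* and *Pds5b*, 5 members in all, beside 15.8% of all tested genes. The span of *Ctcf* overlaps genes on the opposite strand, among them *Agrp*, as do the spans of *Smc1a*, *Stag1*, *Stag2*, *Pds5a* and *Pds5b*. Whether exons overlap was not checked, and the strand setting of the counting is not given in the sources used here. The part of such genes in the levels is therefore unknown.

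The SMC subunits and the kleisin form the ring, and none of the 3 passed the test. *Smc1a* was at 26.62, 29.89 and 35.79 TPM for wild type, 36.22, 33.69 and 37.82 TPM for heterozygotes and 36.2, 40.35 and 37.62 TPM for homozygotes. Homozygous and wild-type libraries of *Smc1a* did not overlap, and the log2 change was 0.31 ± 0.13 (SE; adjusted p = 0.173, limma), 0.08 above the median of all genes. It was 0.07 after median-ratio scaling and 0.04 after the GC and length correction. *Smc3*, the partner of SMC1A in the ring, was at 20.11, 26.03 and 26.05 TPM for wild type, 26, 24.9 and 24.71 TPM for heterozygotes and 26.88, 28.9 and 26.62 TPM for homozygotes. Its wild-type and homozygous libraries did not overlap either, although the higher wild-type values lay close to the lowest homozygous value, and the log2 change was 0.19 ± 0.13 (SE; adjusted p = 0.333, limma). *Rad21* was at 82.85, 96.13 and 105.99 TPM for wild type, 102.9, 95.3 and 111.11 TPM for heterozygotes and 108.39, 107.71 and 93.43 TPM for homozygotes. The 3 groups of *Rad21* overlapped, with the lowest homozygous value in replicate 3, and the homozygous log2 change was 0.12 ± 0.12 (SE; adjusted p = 0.516, limma). Relative to the median of all genes, *Smc3* and *Rad21* were at -0.04 and -0.11. Both changes were smaller without wild-type replicate 1, at 0.07 for *Smc3* and 0.03 for *Rad21*. The *Rad21* change was 0.20 without wild-type replicate 3 and 0.19 without homozygous replicate 3.

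STAG1 and STAG2 are alternative subunits that define distinct forms of the complex, and STAG proteins contact CTCF. *Stag1* was at 11.37, 13.21 and 14.31 TPM for wild type, 14.07, 14.06 and 16.03 TPM for heterozygotes and 17.44, 16.84 and 13.89 TPM for homozygotes. All 3 groups overlapped with each other, and the homozygous log2 change from wild type was 0.29 ± 0.14 (SE; adjusted p = 0.216, limma), or 0.06 after median-ratio scaling. *Stag2*, whose change had the largest standard error of the 9, was at 32.82, 50.98 and 47.13 TPM for wild type, 40.8, 44.63 and 44.79 TPM for heterozygotes and 42.86, 60.11 and 33.96 TPM for homozygotes. The wild-type and homozygous ranges of *Stag2* overlapped over most of their length, with the highest value in a homozygous library, and the log2 change was 0.05 ± 0.21 (SE), with a 95% interval of -0.42 to 0.51 that allows a change in either direction (adjusted p = 0.893, limma). Its sign depended on single libraries: the log2 change was -0.14 without wild-type replicate 1, -0.17 without homozygous replicate 2 and 0.24 without homozygous replicate 3.

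*Smc1a* and *Stag2* lie on the X chromosome, so their levels were also set against sex. *Stag2* ranged from 32.82 to 44.79 TPM in the 5 libraries with *Xist* and from 33.96 to 60.11 TPM in the 4 without it, and *Smc1a* from 26.62 to 37.82 and from 29.89 to 40.35 TPM. These ranges overlapped. With sex as a further term, none of the 9 genes was among the 5 genes that limma called for that term. The log2 differences of the 9 between libraries with and without *Xist* ran from -0.41 to -0.04. As all heterozygous libraries held *Xist*, this term rested on wild-type and homozygous libraries alone. The only wild-type library with *Xist* was replicate 1, the lowest library for all 9 genes. Comparisons with heterozygous hearts that include sex as a further term carry this limit.

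*Nipbl*, whose product loads cohesin together with MAU2, was at 7.92, 11.85 and 15.01 TPM for wild type, 13.68, 14.83 and 15.2 TPM for heterozygotes and 15.28, 17.16 and 16.45 TPM for homozygotes. Homozygous libraries were all above both other groups, although the highest wild-type, the highest heterozygous and the lowest homozygous value lay close together. The homozygous mean was 16.3 ± 0.949 TPM (SD, n = 3) against 11.6 ± 3.55 TPM (SD, n = 3) in wild type, a log2 change of 0.50 ± 0.19 (SE; adjusted p = 0.153, limma). *Nipbl* had the widest spread among wild-type libraries relative to its level, and wild-type replicate 1 was the lowest of the 9. Without that library the log2 change was 0.27, and without the 3 libraries that held the most transcripts of other organs it was 0.26. It was also smaller after median-ratio scaling (0.27) and after the GC and length correction (0.16).

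PDS5A and PDS5B are related proteins that bind the ring beside RAD21. *Pds5a* was at 24.31, 32.93 and 41.06 TPM for wild type, 34.55, 38.42 and 37.04 TPM for heterozygotes and 43.24, 39.23 and 49.5 TPM for homozygotes. Wild-type replicate 3 of *Pds5a* exceeded homozygous replicate 2, so those groups overlapped, and the log2 change was 0.44 ± 0.17 (SE; adjusted p = 0.163, limma). This change was 0.25 without wild-type replicate 1, 0.16 without the 3 libraries with the most transcripts of other organs, 0.20 after median-ratio scaling and 0.11 after the GC and length correction. *Pds5b* was at 9.06, 11.36 and 12.92 TPM for wild type, 13.41, 15.41 and 16.34 TPM for heterozygotes and 16.43, 18.02 and 27.87 TPM for homozygotes. *Pds5b* was the one member whose 3 groups were ordered by allele number without overlap, a pattern shown by 1.68% of all tested genes, although the highest heterozygous and the lowest homozygous library were nearly equal.

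*Pds5b* also had the largest difference of the 9 genes between homozygous and wild-type hearts. Its log2 change was 0.82 ± 0.20 (SE), a 1.77-fold difference with a 95% interval of 0.38 to 1.26, at percentile 96.5 of all genes (adjusted p = 0.0983, limma). Homozygous against heterozygous hearts gave 0.41 (adjusted p = 0.729, limma) and heterozygous against wild-type hearts 0.41 (adjusted p = 0.672, limma). The first of these was 0.19 without homozygous replicate 3, 0.11 without the 3 libraries that held the most transcripts of other organs and 0.14 with sex as a further term. The second was 0.26 after median-ratio scaling, 0.20 after the GC and length correction and 0.69 with sex as a further term. The highest value, 27.87 TPM, was that of homozygous replicate 3, in which thymocyte transcripts were found; their part in the value was not tested. Without this library the homozygous log2 change was 0.60 (adjusted p = 0.0709, limma), and without the 3 libraries with other organs it was 0.47 (adjusted p = 0.189, limma). It was 0.51 after the GC and length correction.

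**Figure D2:**
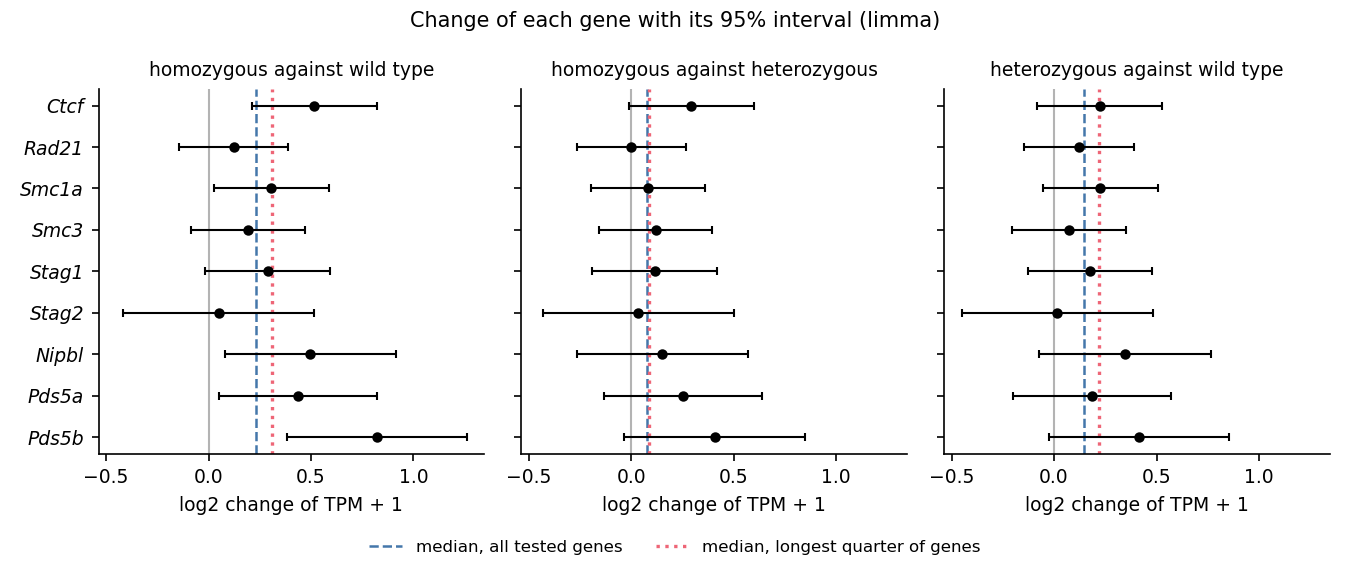
Log2 change of each gene on the log2(TPM + 1) scale (horizontal axis; points, with bars for the 95% interval from limma) in 3 comparisons, with dashed and dotted lines at the median change of all tested genes and of the genes with the longest transcripts. For homozygous against wild type the points ran from 0.05 (*Stag2*) to 0.82 (*Pds5b*), all above 0 on this scale, although *Rad21*, *Smc3* and *Stag2* turned below 0 under median-ratio scaling and *Stag1* under the GC and length correction.

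The comparisons with heterozygous hearts called no member either. Heterozygous against wild type asks whether 1 mutant copy is enough for a difference, and homozygous against heterozygous sets both copies mutant against 1. Homozygous against heterozygous hearts had 0 of 9 called by limma against 0.0439% of all genes, and 0 of 9 at an unadjusted p under 0.05. Heterozygous against wild-type hearts had 0 of 9 called by limma against 0.0146% of all genes, and again 0 of 9 at an unadjusted p under 0.05. All 9 log2 changes were above 0 in each, against 65.9% and 81.5% of all genes, with ranges of 0.00 to 0.41 and of 0.02 to 0.41 on the unscaled values. Of the 21 changes of the genes other than *Ctcf* and *Pds5b* in these comparisons and per allele, 14 changed sign under at least 1 alternative setting, scaling included. These comparisons share libraries with the first, so they are not separate evidence.

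Whole groups that did not overlap were counted in the same way. Homozygous libraries all exceeded wild-type libraries for 5 of the 9 genes (*Ctcf*, *Smc1a*, *Smc3*, *Nipbl* and *Pds5b*), against 22.3% of all genes. They all exceeded heterozygous libraries for 5 of the 9 (*Ctcf*, *Smc3*, *Nipbl*, *Pds5a* and *Pds5b*), against 12.0% of all genes, and heterozygous libraries all exceeded wild-type libraries for 1 of the 9 (*Pds5b*), against 12.8%. No member was lower without overlap in any of the 3 comparisons. The lowest homozygous and highest heterozygous values lay close together. They were 38.89 and 38.65 TPM for *Ctcf*, 26.62 and 26 TPM for *Smc3*, and 15.28 and 15.2 TPM for *Nipbl*. For *Pds5a* they were 39.23 and 38.42 TPM, and for *Pds5b* 16.43 and 16.34 TPM. These counts rest on the unscaled values and were not repeated under other scalings.

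A trend over the number of mutant alleles was fitted as well, with the order of the *Ctcf* values already known. Of the 9 genes, limma called 0, against 0.607% of all genes, and 6 were higher at an unadjusted p under 0.05, against 24.8% of all genes. The slope per mutant allele was 0.26 for *Ctcf* (adjusted p = 0.0784, limma) and 0.41 for *Pds5b* (adjusted p = 0.0705, limma). After the GC and length correction the slopes were 0.13 and 0.25. Without homozygous replicate 3 the *Pds5b* slope was called, beside 5.90% of all genes, and without wild-type replicate 3 those of *Ctcf*, *Nipbl*, *Pds5a* and *Pds5b* were, beside 14.2%.

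Transcript length moved with the changes. Length was taken from the longest annotated transcript of each gene, which need not be the one expressed. Of the 13682 tested genes, 13286 had such a length. For homozygous against wild type, genes were split by length into 4 classes of near equal size, whose median log2 changes were 0.12 for the shortest transcripts, then 0.20 and 0.25, and 0.31 for the longest, of 4731 bases or more. By this measure the 9 genes have long transcripts, from 3782 bases for *Ctcf* to 9423 bases for *Nipbl*, and 6 of them were in the longest class. Their median of 0.31 equalled that of the longest class to 2 decimals. After correction for GC content and length their median was 0.04 and that of all genes -0.00. That correction also centres each library, which by itself brings the median of all genes near 0. Median-ratio scaling, which uses neither length nor GC content, gave medians of 0.07 for the 9 genes and 0.02 for all genes. The part of transcript length in the changes was not tested.

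The 9 genes also moved with the libraries as a whole. All 9 were lowest in wild-type replicate 1, in which the median of all tested genes was -0.23 relative to their means over the 9 libraries and the mean of the 9 genes was -0.45. In homozygous replicate 2, where the median of all genes was highest, at 0.17, the mean of the 9 was 0.22. Homozygous replicate 3 was unlike the rest: the 9 genes spread there from -0.35 for *Stag2* to 0.85 for *Pds5b*, whereas the median of all genes was -0.02. Cardiomyocyte markers were lowest in the same library, at 28632 TPM against 35055 TPM or more.

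**Figure D3:**
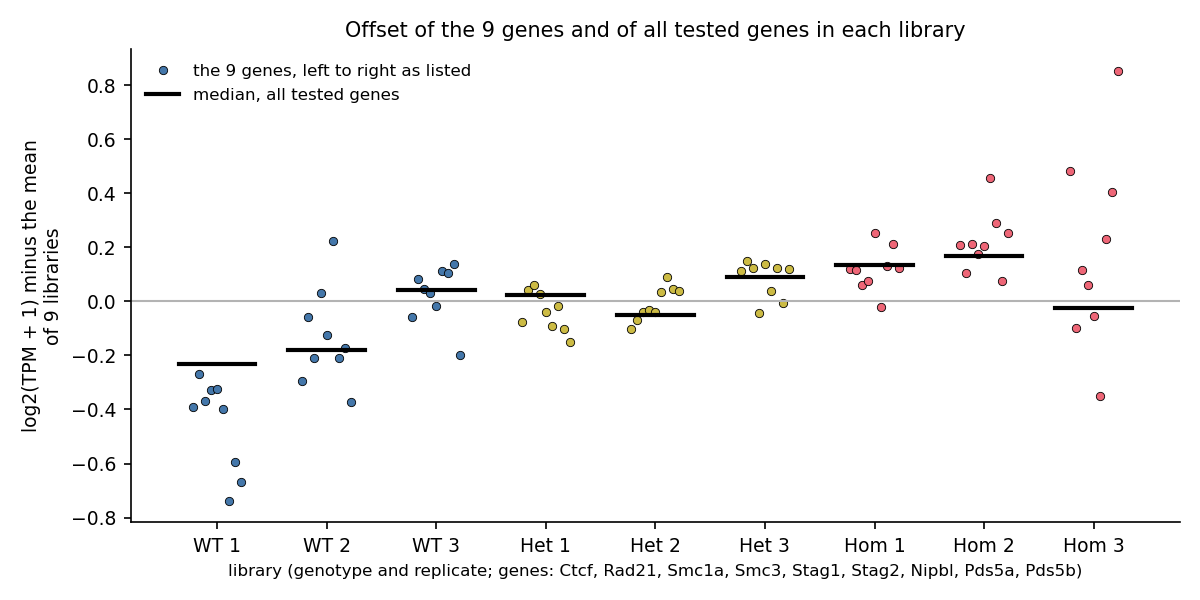
Offset of each of the 9 genes (points, left to right in the order named on the axis) and of the median of all tested genes (bars) in each library, as log2(TPM + 1) minus the mean of the 9 libraries. All 9 points lie below 0 in wild-type replicate 1, and those of homozygous replicate 3 spread from -0.35 to 0.85.

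Ratios of 2 transcripts in the same library do not depend on how the library was scaled. Compared were 8 ratios, picked by the roles of the proteins but with earlier results of these data known. A separation of the groups is therefore not independent support. An exact two-sided permutation test of 3 against 3 libraries cannot give a p below 0.1, and no ratio fell below an adjusted p of 0.4 over the 24 tests. For homozygous against wild type, 3 of the 8 ratios did not overlap between the groups. The count was 1 for homozygous against heterozygous and 2 for heterozygous against wild type. The share among other pairs of genes was not computed, so these counts have no background to be set against.

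The *Ctcf*/*Rad21* ratio was 0.326, 0.301 and 0.324 in wild-type, 0.328, 0.348 and 0.348 in heterozygous and 0.359, 0.384 and 0.538 in homozygous libraries. The 3 groups were ordered by allele number without overlap, although wild-type replicate 1 and heterozygous replicate 1 were almost equal. The log2 difference between homozygous and wild type was 0.41 (exact permutation p = 0.1), or 0.23 without homozygous replicate 3. The *Ctcf*/*Smc3* ratio averaged 1.58 in homozygous and 1.25 in wild-type libraries, a log2 difference of 0.33 (exact permutation p = 0.1), or 0.20 without homozygous replicate 3.

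The *Pds5a*/*Pds5b* ratio was 2.68, 2.90 and 3.18 in wild-type, 2.58, 2.49 and 2.27 in heterozygous and 2.63, 2.18 and 1.78 in homozygous libraries. *Pds5a* exceeded *Pds5b* in every library, and the wild-type ratios were above those of both other groups. The log2 difference between homozygous and wild type was -0.43 (exact permutation p = 0.1), or -0.28 without homozygous replicate 3. The balance of *Stag2* to *Stag1* overlapped between genotypes, from 2.89 to 3.86 in wild-type and from 2.44 to 3.57 in homozygous libraries. The ratios *Smc1a*/*Smc3*, *Rad21*/*Smc3*, *Nipbl*/*Mau2* and *Nipbl*/*Wapl* also overlapped, with log2 differences between homozygous and wild type of 0.12, -0.08, 0.12 and -0.02.

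**Figure D4:**
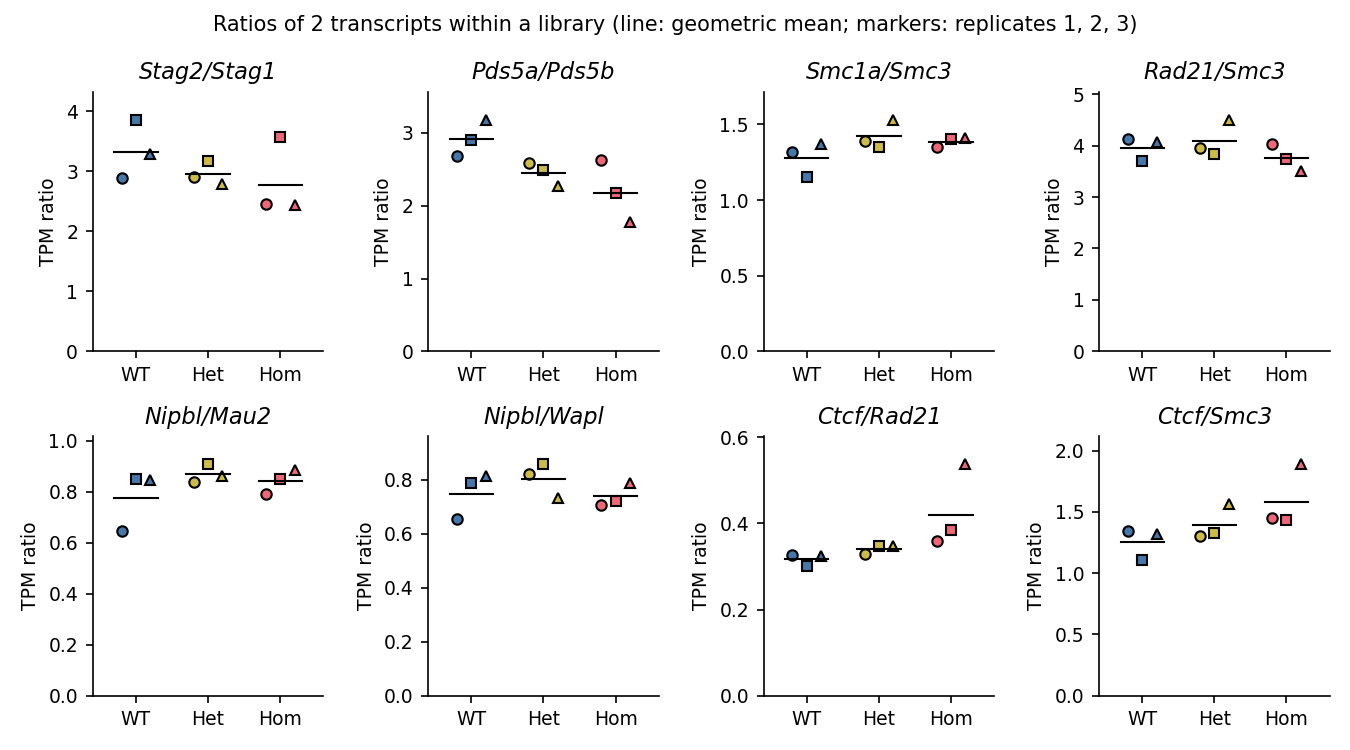
Ratio of 2 transcripts in the same library (vertical axis, from 0) for 8 pairs, with 1 marker per library and a line at the geometric mean of each genotype. The *Ctcf*/*Rad21* ratio runs from 0.301 to 0.326 in wild-type, 0.328 to 0.348 in heterozygous and 0.359 to 0.538 in homozygous libraries, the highest being homozygous replicate 3.

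Other genes that act on cohesin were counted from a list. Of 9 regulators, 0 were called by limma for homozygous against wild type (0.336% of all genes) and 8 had a log2 change above 0 (81.7% of all genes), with a median of 0.40 against 0.23 over all genes. The highest was *Esco1*, which acetylates SMC3, at a mean of 6.07 TPM in wild-type and 9.76 TPM in homozygous hearts, a log2 change of 0.64 (adjusted p = 0.113, limma). The lowest was its relative *Esco2*, which acts in S phase, at -0.12 (adjusted p = 0.740, limma). The other members of the list were the loader partner *Mau2*, the release factor *Wapl*, the SMC3 deacetylase *Hdac8*, sororin (*Cdca5*), separase (*Espl1*), securin (*Pttg1*) and shugoshin (*Sgol1*).

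Germline relatives of the 9 genes were at low levels. *Ctcfl*, *Smc1b* and *Rad21l* were at or below 0.29, 0.17 and 0.11 TPM in every library and were not tested. *Rec8* reached 10.56 TPM in homozygous replicate 1 and 0.94 to 3.14 TPM in the others, and *Stag3* 3.78 TPM in homozygous replicate 3 and 0.69 to 2.10 TPM in the others, with log2 changes of 0.72 and 0.51 (adjusted p = 0.406 and 0.364, limma).

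Lists of neighbouring function were not called either. For homozygous against wild type, 0 of 9 partner proteins of CTCF were called by limma (0.336% of all genes) and all 9 had a log2 change above 0 (81.7% of all genes), from 0.16 for *Adnp* to 0.58 for the zinc-finger gene *Patz1*, with a median of 0.32. The related SMC complexes had lower medians, of 0.21 over 8 condensin genes (from *Smc2* at 0.08 to *Ncapg2* at 0.37) and of 0.05 over 6 genes of the SMC5/6 complex (from *Nsmce1* at -0.00 to *Smc5* at 0.32), and 0 of either list called. As cohesin also acts in dividing cells, proliferation markers were read beside the 9 genes: 11 of 17 were above 0 (81.7% of all genes), with a median of 0.11, from *Ccna2* at -0.12 to *Mcm7* at 0.40, and 0 were called. Their sum spanned 721 to 978 TPM over wild-type, 831 to 963 TPM over heterozygous and 820 to 941 TPM over homozygous libraries, and these ranges overlapped.

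Markers of the cell types in the tissue were read in the same comparison, and limma called none of them. The median log2 change was -0.08 over 10 cardiomyocyte genes, 0.29 over 7 endothelial genes, 0.04 over 7 fibroblast genes, 0.23 over 6 macrophage genes, -0.65 over 5 smooth-muscle genes and -0.68 over 7 erythroid genes. The endothelial sum was 345 to 487 TPM in wild-type and 430 to 589 TPM in homozygous libraries, and the smooth-muscle sum 1474 to 1506 TPM and 774 to 1214 TPM. The part of these shifts in the levels of the 9 genes was not tested.

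Genes were ranked by how closely they followed *Ctcf* over the 9 libraries, using the root mean square difference between the centred log2(TPM + 1) values of the 9951 genes that averaged 5 TPM or more. The 5 nearest were *Brf1*, a subunit of an RNA polymerase III factor, at 0.0466, *Hs6st1*, a heparan sulfate sulfotransferase, at 0.0494, *Rcsd1* at 0.0509, *Nfrkb*, a subunit of the INO80 remodelling complex, at 0.0557, and *Zfp942* at 0.0576, against a median of 0.252. *Brf1*, the first, was at 12.26, 12.9 and 14.86 TPM for wild type, 15.43, 15.01 and 16.87 TPM for heterozygotes and 16.33, 17.31 and 22.43 TPM for homozygotes, so it too was highest in homozygous replicate 3. The cohesin genes were farther away than those 5 genes, but all except *Stag2* were nearer to *Ctcf* than the median gene, at 0.135 to 0.224. *Pds5a* was at rank 499 and *Smc1a* at rank 613. *Nipbl*, *Pds5b*, *Smc3*, *Stag1* and *Rad21* were at ranks 1459, 1509, 2227, 2355 and 3610. *Stag2*, at rank 8336 with 0.348, was farther from *Ctcf* than the median gene. Among the cohesin genes themselves, *Rad21* and *Stag1* were nearest, at 0.0781, and *Stag2* and *Pds5b* farthest apart, at 0.476. The values share libraries and their scaling, and no test was made.

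Promoters of the 9 genes were searched for core letters of the motif that CTCF is known to bind. RefSeq promoter windows (GRCm38.p6, reaching from upstream of the start site to just after it) were matched for 6 of the 9 genes, which were *Ctcf*, *Smc1a*, *Smc3*, *Stag1*, *Pds5a* and *Pds5b*. The letters AGGGGGCNC, searched on both strands and chosen after these promoters had been seen, occur in 749 of 32851 promoters (2.28%). Of the 6, *Pds5b* had a match, on its own strand and with its first base 129 bases before the start site. The window at chr5:150673668-150673736, on the plus strand, has the match in capitals.

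*Pds5b* promoter: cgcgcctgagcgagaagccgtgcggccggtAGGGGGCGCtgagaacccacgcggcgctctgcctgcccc

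The match is a description of the letters, and binding at this window was not measured here.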

How the data were processed

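RNA of E18.5 hearts had been captured by mRNA beads and sequenced in 9 libraries. The authors used Trim Galore (v0.6.10) for trimming, STAR (v2.7.4a) for alignment to mm10, and RSEM (v1.2.28) for quantification, and deposited TPM per gene and library. The annotation release and strand use are not given in the sources used here. TPM keeps no depth, so counting error is unknown. Symbols that had turned into dates (26 of 24597) were left out. Libraries were grouped by title. P-values set a difference against the spread between libraries, and whether that is a spread between animals or litters is not known.

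Genes that averaged 1 TPM or more were fitted as log2(TPM + 1) with limma (v3.58.1, eBayes with trend) in R (v4.3.3) over all 9 libraries. P-values were two-sided and Benjamini-Hochberg adjusted over 13682 genes. Ratios were compared by exact permutation in SciPy (v1.17.1). The fit was tested on simulated data. Gene models came from GENCODE M21, and the longest transcript of each gene gave its length and GC content. The 9 genes, the lists and the tests were chosen with earlier results of these data known. List genes were named as the highest or lowest of a list, and the 5 genes nearest to *Ctcf* were named; *Rec8*, *Stag3* and the low germline genes were listed whatever their values. There were 24 alternative settings, covering pseudocount, filter, scaling, correction, weights, replicate block, sex, groups fitted and libraries left out.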

Additional observations from a re-analysis of the deposited data

How the results depend on the processing

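Of 358 alternative values for the 15 log2 changes printed by gene, 326 kept their direction and their side of the threshold, 19 passed the threshold in addition and 13 changed sign. No member was called in the 3 pairwise comparisons or per allele under any other setting than those named next. For homozygous against wild type, array weights called 7 members (64.0% of all genes), and leaving out 1 library in turn gave 0 to 5. For heterozygous against wild type, array weights called 3 (32.3%). Per allele, array weights called 6 (32.0%), and leaving out 1 library gave 0 to 4. The weights were not estimated to convergence. Median-ratio scaling turned *Rad21* to -0.12, *Smc3* to -0.041 and *Stag2* to -0.19, and moved the median of all genes from 0.23 to 0.02. Quantile normalization gave -0.021 for *Smc3* and -0.11 for *Stag2*, and rescaling without mitochondrial and haemoglobin genes -0.0045 for *Stag2*. The GC and length correction gave -0.13 for *Rad21*, -0.076 for *Smc3*, -0.0068 for *Stag1* and -0.24 for *Stag2*. Array weights gave -0.13 for *Stag2*, and leaving out 1 library -0.17 to 0.24. Without the 3 libraries with other organs, the log2 difference was 0.00013 for *Rad21*/*Smc3* and -0.050 for *Nipbl*/*Mau2*. Leaving out 1 library gave -0.013 to 0.18 for *Nipbl*/*Mau2* and -0.12 to 0.041 for *Nipbl*/*Wapl*. The cause of these shifts was not tested.

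With the replicate number as a block (replicate block), limma called 0 members in each comparison, and 0.124% of all genes for homozygous against wild type. Whether the numbers pair the libraries could not be settled. Correlations of deviations ran from -0.0306 to 0.359 between libraries of the same number and from -0.314 to 0.121 between libraries of different numbers. The highest were those of wild-type with heterozygous replicate 1, at 0.359, and of wild-type with heterozygous replicate 3, at 0.297. Not every library correlated best with its own number.

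Depth is unknown. Pairwise log2 changes had a median standard error of 0.18.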
